A study of Mus musculus with 6 samples.

Results

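The SIBLING family (small integrin-binding ligand, N-linked glycoproteins) comprises the acidic phosphoproteins of dentin and bone encoded by Dspp, Dmp1, Mepe, Ibsp and Spp1. These 5 genes were taken by name from a table of 17582 genes, and all 5 were found. The libraries came from first mandibular molars of C57BL/6 mice at postnatal day 4, sequenced as enriched mRNA on the BGISEQ-500. The knockout group, K14-Cre; Wnt10aflox/flox, held 3 libraries in which a Cre recombinase under the keratin 14 promoter, active in epithelium, could recombine both floxed alleles of Wnt10a. The control group held 3 libraries from Wnt10aflox/flox littermates, so both groups carried the floxed alleles and they differed by the Cre. Pooling of animals and the floxed exons are not stated in the labels, so p-values describe the spread between these libraries, which may be technical.

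SIBLING proteins are secreted into mineralizing matrix, where they are heavily phosphorylated, bind calcium and, through an Arg-Gly-Asp motif, bind integrins on cells. DSPP is cut into dentin sialoprotein and dentin phosphoprotein and is made mainly by odontoblasts, the mesenchymal cells that lay down dentin, and briefly by young ameloblasts of the epithelium. DMP1 is made by odontoblasts and osteocytes, bone sialoprotein (IBSP) and osteopontin (SPP1) chiefly by bone and cementum cells, osteopontin also by osteoclasts and macrophages, and MEPE by osteocytes and odontoblasts. The comparison addresses how these matrix genes, made largely in mesenchyme, stood when Wnt10a, a secreted Wnt ligand, was targeted in the epithelium.

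The genes lie side by side on the plus strand of mouse chromosome 5 (GENCODE M21, GRCm38, the assembly also called mm10), in a block of 270.3 kb with 0 other protein-coding genes between neighbours. Dspp spans 104170712 to 104180127 and Dmp1 spans 104202613 to 104214102. Ibsp spans 104299171 to 104311469, Mepe 104325329 to 104338611 and Spp1 104435118 to 104441050. The transcripts to which GENCODE assigns a RefSeq entry have 5 exons for Dspp, 6 for Dmp1, 7 for Ibsp and 3 for Mepe. Those of Spp1 have between 6 and 8.

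The promoters of Dmp1, Ibsp, Mepe and Spp1 are shown because the members lie in 1 block of the genome and all 5 had knockout means below those of the control; that of Dspp is not shown. Each is the 250 bases before a RefSeq start, the one nearest the GENCODE start where a gene has several (GRCm38.p6, plus strand, 5′ to 3′), at chr5:104299037-104299286 for Ibsp, chr5:104434861-104435110 for Spp1, chr5:104325079-104325328 for Mepe and chr5:104202367-104202616 for Dmp1. Capitals mark every match, on either strand, to 5 motifs. TGTGGT is the core bound by RUNX factors, and TAATTA is bound by many homeodomain factors. The CCAAT box is spelled as its name, and the TATA box was searched as TATAAA. The core of TCF and LEF factors, the nuclear partners of beta-catenin, was searched as CTTTGA. GENCODE places the start of Ibsp inside the window shown, 116 bases before the RefSeq start.

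Ibsp: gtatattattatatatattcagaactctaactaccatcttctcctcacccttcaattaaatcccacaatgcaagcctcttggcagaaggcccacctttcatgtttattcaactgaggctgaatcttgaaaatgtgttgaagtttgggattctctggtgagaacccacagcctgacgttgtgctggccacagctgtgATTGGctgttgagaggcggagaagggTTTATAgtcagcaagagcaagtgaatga

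Spp1: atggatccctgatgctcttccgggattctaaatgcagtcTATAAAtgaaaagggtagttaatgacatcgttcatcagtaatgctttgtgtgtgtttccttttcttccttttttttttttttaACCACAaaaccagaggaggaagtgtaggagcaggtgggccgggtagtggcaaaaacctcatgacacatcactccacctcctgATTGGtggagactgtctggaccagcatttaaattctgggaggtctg

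Mepe: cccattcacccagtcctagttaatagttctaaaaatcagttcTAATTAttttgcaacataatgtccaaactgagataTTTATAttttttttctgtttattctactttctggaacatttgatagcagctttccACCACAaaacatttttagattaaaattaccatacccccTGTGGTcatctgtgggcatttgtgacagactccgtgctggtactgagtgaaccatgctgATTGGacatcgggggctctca

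Dmp1: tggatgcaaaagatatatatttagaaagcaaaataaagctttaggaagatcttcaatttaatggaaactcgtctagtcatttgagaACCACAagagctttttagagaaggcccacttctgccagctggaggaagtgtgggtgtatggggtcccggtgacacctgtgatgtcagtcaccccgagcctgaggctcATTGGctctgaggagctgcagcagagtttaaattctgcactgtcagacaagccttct

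All 4 promoters held a CCAAT box, each time as its reverse complement ATTGG, at 54 bases before the start in Ibsp, 46 in Spp1, 21 in Mepe and 57 in Dmp1. Of all 32851 promoter windows of the same length, 33.8% held these letters. The RUNX letters were in 3 of the 4, Spp1, Mepe and Dmp1, against 14.0% of all windows, and Mepe held them on each strand. TATA letters were in 3 of the 4 against 12.4% of all windows. In Ibsp they lay reversed at 28 bases before the start, the inverted TATA box known from the rat and human genes. In the other promoters with a match they lay farther away, reversed at 173 bases before the start in Mepe and forward at 211 in Spp1. The homeodomain letters were in 1 of the 4, Mepe, against 4.84%, and the TCF and LEF letters were in 0 of the 4, against 13.8%. A match describes letters in the window and is not evidence of binding, and the absence of a match says only that the letters are not in this window. Dspp is named only.

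The 6 libraries were of like depth, between 17900000 and 18450000 reads as estimated from the steps between low values, and between 11774 and 12025 genes stood at or above 1 FPKM (fragments per kilobase, corrected for each library's mapped total). Markers of the labelled tissue were abundant in every library, with Amelx, the main enamel matrix gene, between 166874.01 and 201391.64 FPKM. The targeted gene checked the labels. Wnt10a held 19.39, 19.94 and 18.07 FPKM in knockouts 1 to 3, against 33.61, 36.59 and 31.68 FPKM in controls 1 to 3, and it fell by limma-trend (-0.79 on the log2 scale, SE 0.077, adjusted p = 0.00609). Libraries differed in markers of other tissues. Summed over 8 skeletal muscle genes, knockout 3, control 1 and control 3 held between 46.47 and 66.38 FPKM and the other 3 between 6.72 and 12.64 FPKM, and control 1 held 202.6 FPKM of 8 oral mucosa genes against between 12.59 and 24.61 FPKM elsewhere.

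In the comparison of knockout with control, all 5 SIBLING transcripts had lower mean levels in the knockout, and none of the 4 tested passed the threshold of 0.05 on the adjusted p. Ibsp came closest, and its 3 knockout libraries all lay below its 3 controls. Spp1 had the largest fold change of the 4, carried by knockouts 1 and 2. The groups of Dmp1 and of Dspp overlapped, and Mepe was too low to test. The test was limma-trend on log2(FPKM + 1) over the 11934 genes that reached 1 FPKM in 3 or more libraries, in which 1 gene, Wnt10a, was called, 0.00838% of those tested, in the lower direction. At an unadjusted limma p under 0.05 there were 2 of the 4 members, Ibsp and Spp1, where 5.7% of all tested genes reached that level in either direction and 2.71% in the lower direction. By limma-voom on rebuilt reads 0 of the 4 passed. For scale, 51.8% of all tested genes had a fold change below 0 and their median was -0.005.

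**Figure D1:**
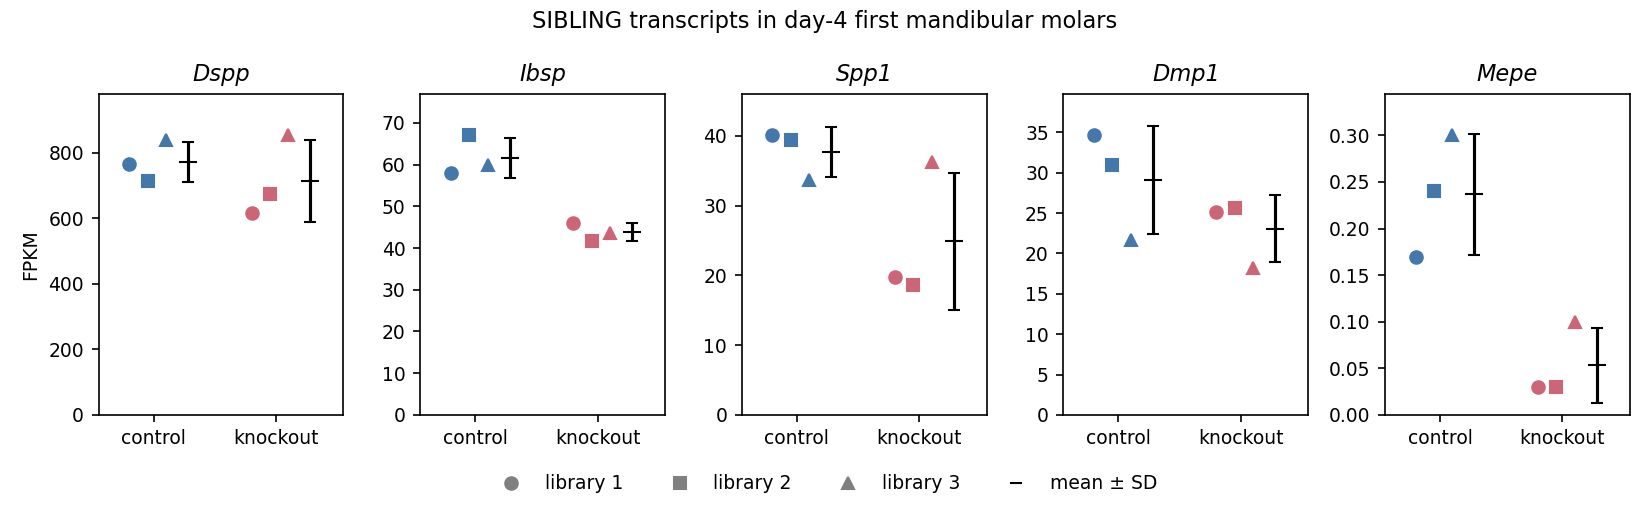
FPKM of each SIBLING gene in the 3 control and 3 knockout libraries, on linear axes that start at 0 with a separate scale for each gene; symbols stand for library numbers and black bars for the mean ± SD. The knockout points of Ibsp and Mepe lie below all control points, knockout 3 of Spp1 lies among the controls at 36.22 FPKM, and Dspp and Dmp1 overlap.

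The level of these genes spanned a wide range, and since FPKM is per transcript length the members can be set side by side. Dspp was far above the rest, averaging 714 ± 124 FPKM over the knockouts and 773 ± 61.7 over the controls (SD, n = 3 each), above 99.7% of all genes in the table. It made up between 83.9% and 89.7% of the summed FPKM of the family in each library. Ibsp was second in all 6 libraries, and Mepe was last in all 6. Spp1 stood above Dmp1 in the 3 controls and in knockout 3, and below it in knockouts 1 and 2. Within the knockout group these neighbours in the order did not differ beyond their spread, at 24.9 ± 9.85 FPKM for Spp1 and 23.0 ± 4.16 FPKM for Dmp1 (SD, n = 3). Within the control group they were 37.7 ± 3.52 and 29.1 ± 6.71 FPKM, whose ranges overlapped at 33.64 FPKM for Spp1 in control 3 and 34.63 FPKM for Dmp1 in control 1. The 5 genes together accounted for 0.288% to 0.394% of the reads rebuilt per library.

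Dspp, the dentin member and the precursor that is mutated in human dentinogenesis imperfecta, had 614.78, 674.65 and 853.08 FPKM in knockouts 1 to 3. Controls 1 to 3 had 764.98, 715.15 and 837.92 FPKM. The groups overlapped, with knockout 3 the highest of all 6 libraries and knockout 1 the lowest. The log2 fold change was -0.12 ± 0.115 (SE), with a 95% interval of -0.377 to 0.128 and a limma adjusted p of 0.909. Between 50021 and 69034 rebuilt reads stood behind each value, so counting error is small beside the difference between libraries. In bulk tissue, fewer cells of a type and less RNA per cell cannot be told apart, for Dspp as for the members below.

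Dmp1, which nucleates mineral in dentin and bone and whose loss in mice and humans gives hypophosphatemic rickets, stood at 25.19, 25.69 and 18.25 FPKM in knockouts 1 to 3. The controls held 34.63, 31.00 and 21.62 FPKM. The groups overlapped, because control 3 lay below knockouts 1 and 2. Its log2 fold change was -0.31 ± 0.164 (SE), with a 95% interval of -0.673 to 0.047 and a limma adjusted p of 0.883. Within each group the library with the most Dspp, knockout 3 and control 3, had the least Dmp1, so the ratio of Dspp to Dmp1 was 46.7 and 38.8 there against between 22.1 and 26.3 in the other 4 libraries.

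Ibsp encodes bone sialoprotein, which nucleates hydroxyapatite and is abundant in new bone and cementum. Its level was 46.02, 41.78 and 43.56 FPKM in knockouts 1 to 3, and 58.07, 67.02 and 59.85 FPKM in controls 1 to 3. The highest knockout value lay below the lowest control value, a pattern of non-overlap in the lower direction that 5.35% of tested genes shared. The means were 43.8 ± 2.13 FPKM for the knockouts and 61.7 ± 4.74 for the controls (SD, n = 3 each), a ratio of control to knockout of 1.41. The log2 fold change was -0.48 ± 0.075 (SE), with a 95% interval of -0.648 to -0.318. It ranked 4 by p among 11934 genes, and the limma adjusted p was 0.144. Rebuilt reads behind these values numbered 1450 to 1634 in the knockouts and 2001 to 2313 in the controls.

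Spp1 encodes osteopontin, an inhibitor of crystal growth that also tethers osteoclasts to bone. Knockouts 1, 2 and 3 held 19.79, 18.60 and 36.22 FPKM and controls 1, 2 and 3 held 40.06, 39.36 and 33.64 FPKM. Knockouts 1 and 2 lay below all controls, and knockout 3 lay among them. The log2 fold change was -0.64 ± 0.195 (SE), with a 95% interval of -1.068 to -0.212 and a limma adjusted p of 0.736. Without knockout 3 it was -0.93, with a limma adjusted p of 0.00839, but that omission takes away the knockout value closest to the controls. Spp1 was thus uneven within the knockout group, with an SD of 39.6% of the mean there and of 9.35% in the control.

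Mepe, whose C-terminal peptide inhibits mineralization and is bound by the endopeptidase PHEX, was scarcely detected. Knockouts 1 to 3 held 0.03, 0.03 and 0.10 FPKM, and controls 1 to 3 held 0.17, 0.24 and 0.30 FPKM. Rebuilt from FPKM and length, these are 1, 1 and 3 reads against 5, 7 and 9 reads. The groups did not overlap, as in 5.57% of all genes of the table in this direction. The 5 knockout reads and 21 control reads give a ratio of knockout to control of 0.235, with an exact 95% interval of 0.0693 to 0.641 that covers counting error only. Mepe was below the filter of the test across genes, and with no filter its limma adjusted p was 0.729.

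**Figure D2:**
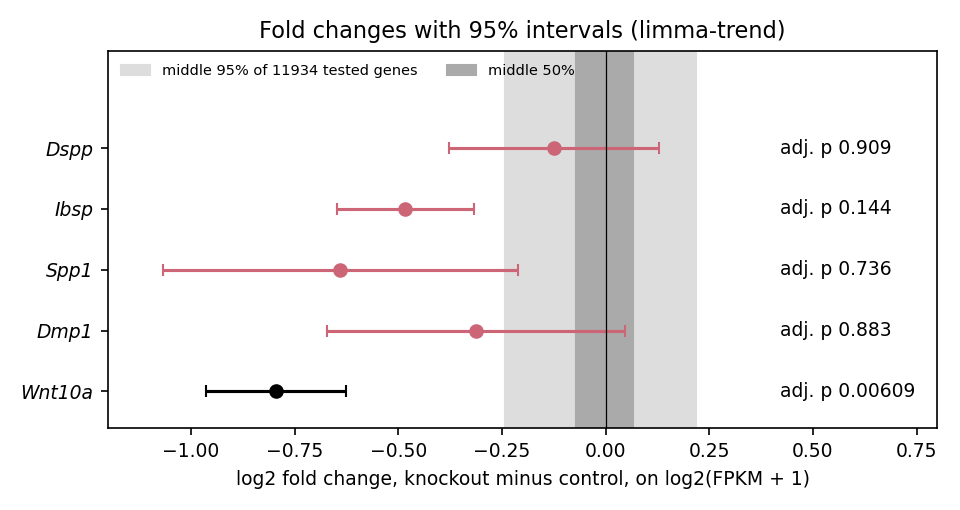
Fold changes on the log2(FPKM + 1) scale with 95% intervals from limma-trend for the 4 tested SIBLING genes (red) and Wnt10a (black), with adjusted p beside each; the bands hold the middle 95% (-0.243 to 0.218) and the middle 50% of all 11934 tested genes. The point estimates of Dmp1, Ibsp and Spp1 lie below the wider band, and the intervals of Dspp and Dmp1 cross 0.

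The authors' deposited table has its own log2 ratio and q-value for each gene, made with a test the file does not name. In the authors' deposited table all 5 members had a q-value under 0.05 in the lower direction, as did 14.1% of the 16662 genes that carry one, while 24.4% of them had one in either direction. The ratios in the authors' deposited table were -0.114 for Dspp (q = 4.22e-120), -0.333 for Dmp1 (q = 2.68e-22) and -0.492 for Ibsp (q = 2.93e-68). For Spp1 and Mepe the authors' deposited table had -0.595 (q = 7.53e-43) and -2.09 (q = 0.00512). Beside the q-value of Dspp in the authors' deposited table stands the limma adjusted p of 0.909, and the knockout libraries themselves ranged from 614.78 to 853.08 FPKM.

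The members varied to unlike degrees within a group. The pooled within-group SD on the log2(FPKM + 1) scale was 0.374 for Spp1, and 99.2% of tested genes had a smaller one. It was 0.306 for Dmp1 and 0.190 for Dspp, with 98.3% and 90.0% of tested genes below them. Ibsp, at 0.090, was steadier, with 35.6% of tested genes below it. The ratio of Dspp to Ibsp was 13.4, 16.1 and 19.6 in knockouts 1, 2 and 3 and 13.2, 10.7 and 14.0 in controls 1, 2 and 3, so the groups overlapped in this ratio. The ratio of Ibsp to Spp1 was 2.33 and 2.25 in knockouts 1 and 2, 1.20 in knockout 3 and between 1.45 and 1.78 in the controls.

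**Figure D3:**
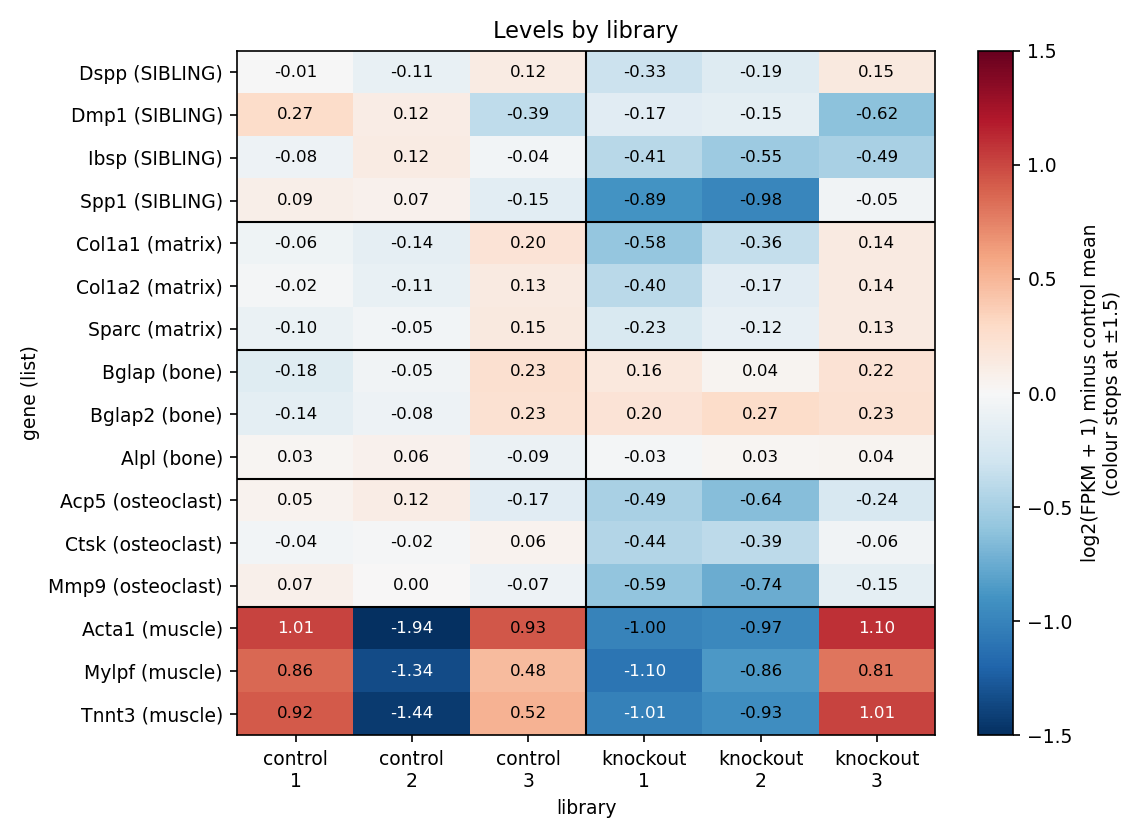
Each cell is the log2(FPKM + 1) of a gene in a library minus its mean over the 3 controls, for the 4 tested SIBLING genes and for named genes of the matrix, bone, osteoclast and muscle lists. Spp1 is at -0.89 and -0.98 in knockouts 1 and 2 and at -0.05 in knockout 3, Mmp9 is at -0.59, -0.74 and -0.15 there, and Ibsp is between -0.41 and -0.55 in all 3.

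Osteoclasts, the bone-resorbing cells, are a known source of osteopontin. Of their tested markers, Acp5, Ctsk and Mmp9 were lowest in knockouts 1 and 2, the libraries where Spp1 was lowest. The other tested markers, Nfatc1 and Itgb3, did not share this pattern, since for both of them knockout 2 lay above control 2. Summed over the 10 listed osteoclast genes, knockouts 1, 2 and 3 held 59.18, 59.02 and 76.55 FPKM and controls 1, 2 and 3 held 83.82, 84.21 and 82.85 FPKM. All 5 tested osteoclast genes had fold changes below 0, against 51.8% of all tested genes, with a median of -0.295. Acp5, Ctsk and Mmp9 did not overlap between groups, with the knockouts lower, a pattern that 5.35% of all tested genes shared. These 3 had an unadjusted limma p under 0.05, as did 5.7% of all tested genes in either direction, and 0 of the 5 passed by limma. The other 5, among them Calcr and Dcstamp, stayed below the filter. Macrophage genes, also a known source of Spp1, summed to 79.07, 69.29 and 91.70 FPKM in the knockouts and to 74.64, 78.35 and 95.98 FPKM in the controls, and the groups overlapped. Of the 10 macrophage genes tested 6 had estimates below 0 and 0 passed by limma. At an unadjusted limma p under 0.05 there was 1, Gpnmb, in the higher direction. The part of these cells in the Spp1 difference was not tested.

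The odontoblast list, which covers the main source of Dspp and a source of Dmp1, held 10 genes, all tested. Their summed levels were 6181, 7195 and 9672 FPKM in the knockouts and 8526, 8092 and 9985 FPKM in the controls, so the groups overlapped. As for Dspp, knockout 3 was the highest of its group. Col1a1 and Col1a2 made up most of each sum, so the sums mainly follow type I collagen. Of the 10, 7 had estimates below 0, the median log2 fold change was -0.16, and 1 passed by limma, the targeted Wnt10a. At an unadjusted limma p under 0.05 there were 3 of the 10, Wnt10a, Smpd3 and Gsc, against 5.7% of all tested genes. As the gene targeted by design, Wnt10a is no marker of these cells here. It is nonetheless counted in the 7, in the median and in the 3. Wnt10a and Smpd3 had all knockouts below all controls, as did 5.35% of all tested genes. Gsc had all knockouts above, as did 4.8%. Smpd3, a sphingomyelinase needed for mineralization, had 18.88, 21.15 and 20.35 FPKM in the knockouts and 24.88, 21.54 and 22.24 FPKM in the controls. The part of these cells in the values of the members was not tested.

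The bone list overlapped between the groups. Summed over 12 osteoblast and bone genes, the knockouts held 2699, 2577 and 2786 FPKM and the controls 2236, 2396 and 2794 FPKM. Of the 12 tested genes 0 passed by limma, with 3 at an unadjusted limma p under 0.05, against 5.7% of all tested genes. Bglap, osteocalcin, averaged 1850 ± 112 FPKM over the knockouts and 1690 ± 255 over the controls (SD, n = 3 each), so its estimate lay above 0 where that of Ibsp lay below. Of the osteocyte list, which covers cells that make Dmp1 and Mepe, 6 of 7 genes were tested and 0 passed, with Fgf23 at or below 0.08 FPKM in every library. Of the 6, 5 had estimates below 0. The other, Pdpn, had an unadjusted limma p under 0.05, and its groups did not overlap, with the knockouts higher, as in 4.8% of all tested genes. Cartilage genes, which can come with bone, summed to between 34.20 and 45.40 FPKM in the knockouts and between 44.14 and 48.98 FPKM in the controls over the 9 found, with Matn1 at or below 0.03 FPKM. Of these, 3 were tested, all 3 had estimates below 0 and 0 passed by limma, but Col2a1 and Hapln1 had an unadjusted limma p under 0.05. The groups of Hapln1 did not overlap, with the knockouts lower, as in 5.35% of all tested genes. Hapln1, which encodes a link protein of cartilage matrix, averaged 3.49 ± 0.194 FPKM over the knockouts and 4.31 ± 0.255 over the controls (SD, n = 3 each). The part of cartilage in the values of the members was not tested. Over the 8 skeletal muscle genes, sums were 11.51, 12.64 and 66.38 FPKM in knockouts 1 to 3. In controls 1 to 3 they were 62.33, 6.72 and 46.47 FPKM. Beside these, Spp1 was 19.79, 18.60 and 36.22 FPKM in knockouts 1 to 3 and 40.06, 39.36 and 33.64 FPKM in controls 1 to 3. The part of muscle in the values of the members was not tested.

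The partners of the SIBLING proteins gave 0 calls among 64 tested of 68 listed genes, and the lowest limma adjusted p was 0.607. At an unadjusted limma p under 0.05 there were 10, 7 of them in the lower direction, against 5.7% and 2.71% of all tested genes. Of the 64, 46 had fold changes below 0, and their median was -0.078 against -0.005 for all tested genes. The groups did not overlap in the lower direction for 10 of the 64 and in the higher direction for 4, where 5.35% and 4.80% of all tested genes did so.

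Kinases and glycosyl modifiers come first in the life of these proteins. FAM20C phosphorylates SIBLING proteins in the secretory pathway, and FAM20A assists it. Fam20c averaged 70.2 ± 4.95 FPKM over the knockouts and 71.1 ± 2.35 over the controls, and Fam20a 123 ± 11.3 and 131 ± 8.96 FPKM (SD, n = 3 each, as for all means below, with the knockout first). Their log2 fold changes were -0.02 (95% interval -0.178 to 0.136) and -0.09 (-0.273 to 0.0868), and 0 of 6 listed genes passed by limma, or reached an unadjusted p under 0.05. Csnk2a1, a casein kinase subunit, stood at 30.9 ± 1.54 and 30.2 ± 1.41 FPKM.

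Proteases that cut SIBLING proteins, or act in the same matrix, had 14 tested members of 16, of which 13 were below 0, with a median of -0.098 and 0 calls by limma. At an unadjusted limma p under 0.05 there were 3, all lower (Mmp9, Ctsk and Klk4), against 2.71% of all tested genes in that direction. The 3 most abundant were Pcolce, the enhancer of the procollagen proteinase BMP1, at 263 ± 34.6 against 279 ± 24.1 FPKM, Mmp14 at 143 ± 7.48 against 146 ± 5.07 FPKM, and Mmp20, an enamel protease that cleaves dentin sialoprotein, at 228 ± 5.04 against 247 ± 14.9 FPKM. Mmp9 and Ctsk, both osteoclast genes, did not overlap in the lower direction, a pattern that 5.35% of all tested genes shared. Thbs1, a secreted glycoprotein on the list, did not overlap in the higher direction, as did 4.8% of all tested genes. Phex, which binds the MEPE and DMP1 peptides, averaged 44.1 ± 5.50 against 47.9 ± 6.11 FPKM, with a log2 fold change of -0.12 (SE 0.105).

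Receptors of the Arg-Gly-Asp motif and of osteopontin had 9 tested members of 10, 5 below 0 and 4 above, a median of -0.002, 0 calls by limma and 0 at an unadjusted p under 0.05. Itgb1 averaged 86.0 ± 1.80 against 86.1 ± 1.69 FPKM. Itgb5 stood at 68.2 ± 3.95 and 67.4 ± 4.82 FPKM, and Cd44, an osteopontin receptor, at 80.5 ± 4.11 and 82.3 ± 4.90 FPKM. Itgav and Itga5 did not overlap between groups in the lower direction, a pattern that 5.35% of all tested genes shared.

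Transcription factors that act on these genes had 14 tested members, 11 below 0, with a median of -0.124, 0 calls by limma, a lowest adjusted p of 0.736 and 4 at an unadjusted p under 0.05. Dlx3, a regulator of Dspp, averaged 114 ± 2.13 against 121 ± 7.15 FPKM. Msx2 stood at 84.0 ± 3.84 and 84.0 ± 3.09 FPKM, and Atf4, a factor of osteoblast differentiation, at 91.1 ± 6.71 and 85.4 ± 1.49 FPKM. Msx1, Nfic and Tcf7 were among those that did not overlap in the lower direction, and Dlx5 and Dlx6 did not in the higher. These are named because their groups did not overlap, which was seen in their values.

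In the collagenous matrix in which SIBLING proteins act, type I collagen, like Dspp, was lowest in knockout 1 and high in knockout 3 and control 3. Col1a1 had 4042.67, 4703.32 and 6639.76 FPKM in knockouts 1 to 3, and controls 1 to 3 had 5777.44, 5488.17 and 6945.61 FPKM. Its log2 fold change was -0.27 (SE 0.168, limma adjusted p = 0.891), that of Col1a2 was -0.14 (SE 0.129) and that of Sparc, which links collagen and mineral, -0.08 (SE 0.110). Of 14 tested matrix genes 10 were below 0 and 0 passed by limma. At an unadjusted limma p under 0.05 there were 2, Bglap2 and Mgp, both higher, against 5.7% of all tested genes in either direction. Among 7 tested mineralization enzymes and phosphate transporters 3 were below 0, the median was 0.018, 0 passed by limma and 1 had an unadjusted p under 0.05. Alpl, the phosphatase that clears pyrophosphate, averaged 299 ± 7.75 against 296 ± 15.9 FPKM.

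The genes most like each member across the 6 libraries were taken by the highest Pearson correlation of log2(FPKM + 1) among 8303 other genes (8304 for Mepe) with a mean of at least 5 FPKM. The best of so many is high by selection, the 6 points share the 2 groups and their libraries, and the values are descriptions. For Dspp these were Tgfbi (r = 0.991), Col1a2 (0.989) and Loxl4 (0.987), a matrix protein, a collagen chain and a lysyl oxidase. For Spp1 they were Adam15 (0.994), Mmp9 (0.985) and Cacng7 (0.980). For Ibsp they were Irak1 (0.995), Cryl1 (0.993) and Camk2n1 (0.982), for Dmp1 Cebpg (0.997), Mxd1 (0.992) and Cpt2 (0.992), and for Mepe Fam43a (0.990), Galnt1 (0.983) and Islr (0.980). No gene was among the 3 of more than 1 member.

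Of 10 protein-coding genes that start within 500 kb of the block, 9 were tested, 0 passed by limma, 0 had an unadjusted p under 0.05 and 0 had groups that did not overlap. Their log2 fold changes lay between -0.17 and 0.29 with a median of -0.06. Sparcl1, the family's relative next to Dspp, had 65.14, 69.35 and 73.86 FPKM in the knockouts and 76.70, 78.40 and 72.40 FPKM in the controls, and its log2 fold change was -0.13 (SE 0.070, adjusted p = 0.891 by limma). Pkd2, next to Spp1, averaged 11.9 ± 0.474 against 13.0 ± 0.822 FPKM, a log2 fold change of -0.12 (SE 0.077). Whether the members differ from the flanking genes was not tested.

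**Figure D4:**
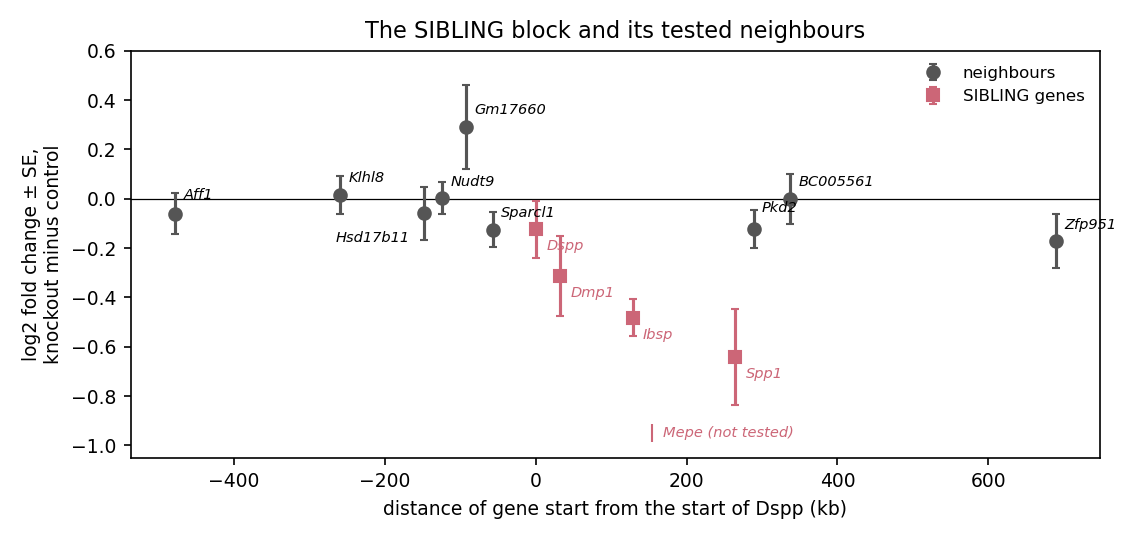
Log2 fold change ± SE on the log2(FPKM + 1) scale against the distance of each gene's start from that of Dspp in kb, for the 4 tested SIBLING genes (red squares) and the 9 tested neighbours (grey circles); the tick for Mepe marks its position and has no value. The neighbours lie between -0.17 and 0.29, and Dspp is at -0.12 and Spp1 at -0.64.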

How the data were processed

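Libraries of 6 molar samples were grouped and numbered by their titles. The authors' deposited table gives FPKM per gene and library, rounded to 2 decimals. Per the submitters' processing notes, Bowtie2 and mm10 were used; what computed FPKM is not stated. The same deposited table holds the authors' log2 ratio, p-value and q-value, and other columns with the longest transcript length and transcript number, per the file headers.

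Values were tested with limma-trend (limma 3.58.1, R 4.3.3), two-sided, on log2(FPKM + 1), with no covariate besides group, for genes that reached 1 FPKM in 3 or more libraries. P-values were adjusted by Benjamini-Hochberg over all tested genes, at a threshold of 0.05. A fold change on the log2(FPKM + 1) scale understates that of low genes. FPKM divides by each library's total, so abundant enamel transcripts can shift all other values. The spacing of low FPKM values gave the depth, with 30 bases taken off the length; 81.3% to 85.8% of these values fell within 0.15 of a whole number of reads. Reads were rebuilt at these depths for description and for 1 alternative. Intervals on reads cover counting error only.

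The members, the lists and the rules were chosen with earlier results of these data known. Named genes were Wnt10a, the members, the 3 most abundant tested genes of each list and any past the threshold, the 3 genes most like each member, and the nearest flanking genes; others are named where a group count singles them out or for their role, after their values were seen. Of the other cell type lists, follicle, papilla, ameloblast, muscle, mucosa and erythroid had 0 calls of 9, 7, 9, 4, 4 and 5 tested. The values of 1 listed gene are not reported here. Promoter sequences are from RefSeq (GRCm38.p6), and 4 of the 5 members matched; positions are from GENCODE M21 on the same assembly. Alternatives were a pseudocount of 0.1, no filter, a filter at 5 FPKM, median-ratio scaling, a replicate block, limma-voom on rebuilt reads and each library left out. Calculations used Python 3.11.15, numpy 2.4.6, pandas 2.3.3, scipy 1.17.1 and matplotlib 3.10.9.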

Additional observations from a re-analysis of the deposited data

How the results depend on the processing

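The count of genes past the threshold was 1, and it was 0 with no filter, 3 with a filter at 5 FPKM and 2 with limma-voom on rebuilt reads. Leaving out single libraries gave between 1 and 6, with 6 without knockout 3 and 3 without control 2. The count of SIBLING genes past the threshold was 0 under all of these except that leaving out single libraries gave between 0 and 1, the 1 being Spp1 without knockout 3. Over single omissions the log2 fold change lay between -0.26 and -0.02 for Dspp, between -0.51 and -0.16 for Dmp1, between -0.52 and -0.42 for Ibsp, between -0.93 and -0.47 for Spp1 and between -0.27 and -0.19 for Mepe. The cause of these shifts was not tested. With a pseudocount of 0.1, Mepe was at -1.15 in place of -0.23, since its values lie below the pseudocount of 1, and with no filter it had a limma adjusted p of 0.729. No direction changed for any member under any alternative run. The limma adjusted p of Ibsp lay between 0.0718 and 0.823 over all alternatives, and that of Wnt10a was 0.106 with no filter and under 0.05 in the others. Same-numbered libraries did not deviate together throughout (correlations of -0.0622, 0.170 and 0.388 for numbers 1, 2 and 3), so the numbers were not taken as pairs. Libraries of unlike number had correlations between -0.398 and 0.304, so that of number 3 was the highest. With the replicate block the count of genes was 8, and 0 were SIBLING genes. The block took the SE of Dmp1 from 0.164 to 0.065, with an unadjusted limma p of 0.00088 and an adjusted p of 0.199. Median-ratio scaling moved all fold changes by a median of 0.000459. Mepe had between 1 and 9 rebuilt reads per library, and every other member had at least 499. The effect of depth was not tested.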
